A study of Mus musculus with 9 samples.

Results

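Of the 54007 rows of a liver expression table, 80 had levels that stood apart in mice given a gut bacterium on a high-fat diet while lying close together in control mice and in mice on the diet alone. These 80 genes and pseudogenes were 26 with higher and 54 with lower levels with the bacterium. All mice were of strain C57BL/6. Liver RNA at postnatal day 98 came as 3 libraries from control mice, 3 from mice fed high fat (high-fat diet, HFD) and 3 from mice on that diet that received the bacterium *Papillibacter cinnamivorans* by gavage (HFD+Pc). Each group began with 15 mice, aged 6 weeks, and no label tells if RNA was pooled across mice, so the spread between libraries may be technical in part. The control replicates were 1, 2 and 4, the HFD replicates 1, 2 and 3, and the HFD+Pc replicates 1, 3 and 4. HFD+Pc mice had both the diet and the bacterium, and no group had the bacterium without the diet. Nor was there a gavage of anything else among these 9 libraries, so the bacterium and the gavage cannot be told apart.

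A feature was a member when its mean over the 9 libraries was at least 1 FPKM (fragments per kilobase of gene, scaled to the size of the library) and all 3 HFD+Pc values lay above, or all 3 below, the 6 control and HFD values. In addition, the HFD+Pc mean plus 1 had to differ at least 1.5-fold from the mean of those 6 plus 1. Last, the HFD mean plus 1 over the control mean plus 1 had to lie between 0.87 and about the inverse of 0.87. Of the 54007 rows, 10523 reached the level. Among these, HFD+Pc lay above all 6 other libraries in 637 (6.05%) and below them in 653 (6.21%), and all criteria together left 26 (0.247%) and 54 (0.513%). The separation of the groups, the fold and the flat response to the diet are therefore what chose the members and are given below as a description, with no test. Just inside the fold limit were Hdhd3 (ratio 1.51) and Gm13509 (1.51) among the higher features and Jmjd8 (1.51-fold lower) and Hcls1 (1.51-fold lower) among the lower. Just outside it were Gm4332 and Gm14121 (both 1.48) among the higher and Pdzk1 (1.4998-fold lower) among the lower.

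Bacteria of the gut reach the liver mainly through products carried in portal blood, and the liver answers through hepatocytes, which make plasma proteins and handle fat, and through resident macrophages, the Kupffer cells. Mitochondria keep a small genome of their own, which encodes some subunits of the respiratory chain, the RNAs of the mitochondrial ribosome and a set of tRNAs, all cut from long transcripts of both strands. Copies of this genome and of spliced messenger RNAs are scattered over the nuclear chromosomes as pseudogenes, so a sequencing read from the parent gene can also match its copy. Such pseudogenes made up 16 of the 26 higher features and 15 of the 54 lower ones, against 4.75% of all features at the level.

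The sequences below show how closely members resemble genes of higher abundance. They are from GENCODE M21 transcripts (GRCm38), which served for names, lengths and sequences and is an earlier build than the GRCm39 of the authors' alignment. Rpl10-ps1 (chromosome 2) was higher, and Rpl10-ps3 (chromosome 9) was lower, and both hold the whole coding part of Rpl10, a protein of the large ribosomal subunit. The first 90 bases of that coding part are the same in all 3.
Rpl10, Rpl10-ps1 and Rpl10-ps3: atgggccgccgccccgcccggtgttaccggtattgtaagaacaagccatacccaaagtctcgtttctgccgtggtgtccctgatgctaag
The highest ratio with more than a few reads belonged to Gm10925 on chromosome 1, whose 678 bases match mt-Atp6, a mitochondrially encoded subunit of ATP synthase, without a mismatch. Its first 90 bases are shown.
Gm10925 and mt-Atp6: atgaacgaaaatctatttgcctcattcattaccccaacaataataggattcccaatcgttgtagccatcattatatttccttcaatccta
The lower feature with the largest ratio was Gm10443, 210 bases long and contained whole in Rps28, a protein of the small ribosomal subunit.
Gm10443 and Rps28: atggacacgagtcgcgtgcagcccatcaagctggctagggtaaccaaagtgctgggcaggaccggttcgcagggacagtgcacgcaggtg
Gm13340 (higher) and Gm13341 (lower), both on chromosome 2, differ from their mitochondrial parents at single bases, in capitals in the next 4 lines.
Gm13340: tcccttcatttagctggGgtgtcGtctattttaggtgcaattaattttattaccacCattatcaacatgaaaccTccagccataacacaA
mt-Co1: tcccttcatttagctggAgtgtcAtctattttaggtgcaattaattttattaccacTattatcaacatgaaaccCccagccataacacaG
Gm13341: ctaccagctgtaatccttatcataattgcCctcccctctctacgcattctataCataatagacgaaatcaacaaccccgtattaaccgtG
mt-Co2: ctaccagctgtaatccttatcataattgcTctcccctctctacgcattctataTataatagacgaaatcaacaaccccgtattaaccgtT
With the parent's base first and positions counted from the first base of the pseudogene, these are A462G, A468G, T501C, C519T and G534A in Gm13340 and T231C, T255C and T291G in Gm13341.

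The heat map of members by library shows the 3 HFD+Pc columns apart from the other 6, as the rule requires. What the rule did not fix is the order among libraries. HFD replicate 3 was the lowest of the 6 control and HFD libraries in 35 of the 54 lower members (64.8%), against 21.02% of all features at the level, and so lay nearest to HFD+Pc. It was the highest of those 6 in 8 of the 26 higher members (30.8%), against 22.03% of all features at the level. HFD+Pc replicate 1 had the lowest level of its group in 17 of the 26 higher members (65.4%) and in 29 of the 54 lower members (53.7%), against 41.6% of all features at the level. Whole reads recovered from the FPKM came to 16332011 to 18692811 per library, and 3 reads in 1 kb of gene were worth 0.160 to 0.179 FPKM, a detection floor for counting error alone. In 2 higher and 11 lower members at least 1 library had under 10 reads, and in 11 and 19 every library had at least 100. The median coefficient of variation within HFD+Pc was 16.0% for the higher and 19.3% for the lower features.

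**Figure D1:**
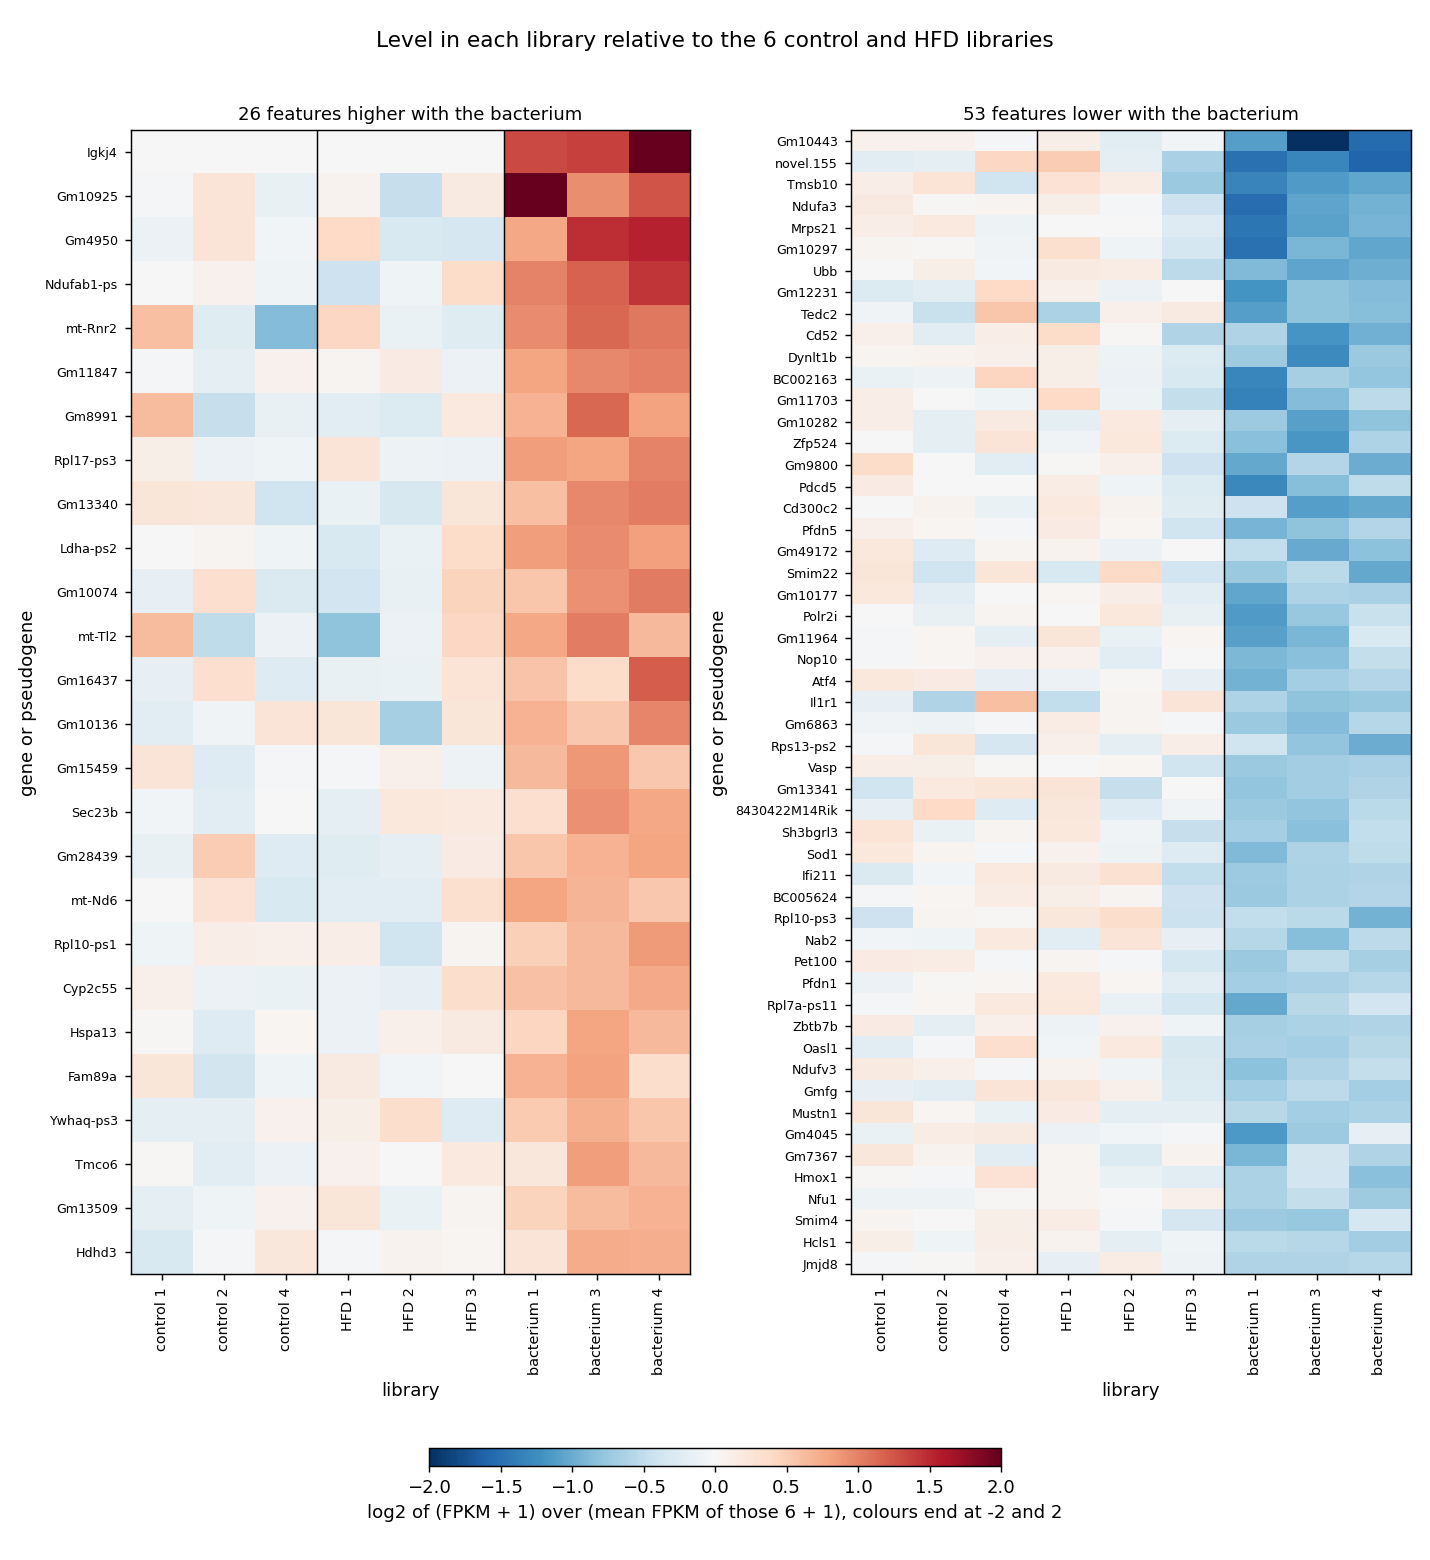
Heat maps of the 26 higher and 53 of the 54 lower features (rows, ordered by ratio) in the 9 libraries (columns). Colour is the log2 of FPKM plus 1 over the mean of the 6 control and HFD libraries plus 1, and HFD replicate 3 is the lowest of those 6 in 35 of the 54 lower features.

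Mitochondrially encoded RNAs formed the largest single group of higher features outside the pseudogenes, with 3 members: mt-Rnr2, mt-Nd6 and mt-Tl2. The large ribosomal RNA mt-Rnr2 measured 281, 155 and 101 FPKM in the control libraries, 245, 167 and 156 FPKM in HFD and 355, 409 and 385 FPKM in HFD+Pc. Its HFD+Pc mean of 383 ± 27.3 FPKM (SD, n = 3) was 2.07 times the mean of the other 6, with 1 added to each, and the control libraries spread far more than the HFD+Pc libraries did. mt-Nd6, a complex I subunit and a messenger RNA of the strand that encodes few genes, had 3461, 4191 and 2797 FPKM in control, 2940, 2954 and 4321 FPKM in HFD and 5922, 5520 and 5012 FPKM in HFD+Pc. The ratio was 1.59, and HFD replicate 3 was the closest of the other 6. The leucine tRNA mt-Tl2 had 59.5, 26.5 and 35.04 FPKM in control, 21.5, 35.3 and 51.1 FPKM in HFD and 66.0, 79.0 and 60.04 FPKM in HFD+Pc. Its groups were apart by a narrow margin, since control replicate 1 reached 59.5 and HFD+Pc replicate 4 stood at 60.04 FPKM.

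The whole sequence of mt-Tl2 is given here, since its value rests on 71 bases.
mt-Tl2: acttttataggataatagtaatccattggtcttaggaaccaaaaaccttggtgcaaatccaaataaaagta
Of the 31 mitochondrially encoded genes at the level, 6 lay above all 6 other libraries and none below, against 6.05% and 6.21% of all features. These genes above all 6 include the 3 members, which the rule placed there. The log2 ratio was positive in 25 of the 31, against 5406 of all 10523 features at the level, and the medians were 0.62 and 0.01. Besides the members, the genes above all 6 were the tRNAs mt-Tp, mt-Ts2 and mt-Tw. These missed the window because their HFD means stood above their control means. For mt-Tp, HFD+Pc had 2377, 1979 and 1701 FPKM against 784 to 1371 FPKM in the other 6. The most abundant messenger RNAs of the same genome lay nearer to 0: mt-Co1 had a log2 ratio of -0.02, mt-Cytb of -0.17, mt-Nd1 of -0.20 and mt-Nd2 of 0.28. In bulk tissue, fewer cells of a type and less RNA per cell cannot be told apart, and the same holds here for the number of mitochondria and the RNA in each.

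Nuclear copies of the mitochondrial genome gave 3 more higher features and 1 lower feature. Gm10925, the copy of mt-Atp6, had 132, 162 and 122 FPKM in control, 142, 97.3 and 154 FPKM in HFD and 798, 259 and 323 FPKM in HFD+Pc, a ratio of 3.39. HFD+Pc replicate 1 stood far above the other 2 of its group. mt-Atp6 itself had a lower value in that same library, 313 FPKM, and its highest, 537 FPKM, in HFD+Pc replicate 4. Summed over Gm10925 and mt-Atp6, the reads had a log2 ratio of 1.44, and the summed values of the groups overlapped.

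Gm28439 on chromosome 1, whose 876 bases are contained whole in mt-Nd4, had 46.8, 74.7 and 43.4 FPKM in control, 44.1, 45.4 and 58.4 FPKM in HFD and 77.03, 84.6 and 90.8 FPKM in HFD+Pc. Control replicate 2 came close to the HFD+Pc values. Gm28439 held 0.992% of the reads of the pair, and the sum had a log2 ratio of 0.06. Gm13340, 97.6% identical to mt-Co1, had 5.44 to 9.05 FPKM in the other 6 libraries and 11.8, 15.5 and 16.2 FPKM in HFD+Pc, and it held 0.0591% of the reads of its set. Gm13341, a copy of mt-Co2 on the same chromosome, went the other way, with 1.65 to 3.33 FPKM in the other 6 and 1.11, 1.24 and 1.41 FPKM in HFD+Pc. Its parent had a log2 ratio of 0.64.

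Protein-coding genes of the nucleus gave 6 of the 26 higher features: Sec23b, Hspa13, Cyp2c55, Fam89a, Hdhd3 and Tmco6. Sec23b, a subunit of the inner COPII coat that buds vesicles from the endoplasmic reticulum, had 5.03, 4.32 and 5.20 FPKM in control, 4.51, 6.17 and 6.14 FPKM in HFD and 6.88, 10.7 and 9.63 FPKM in HFD+Pc. The ratio was 1.62, with HFD+Pc replicate 1 much nearer to HFD than the other two. Of 10 COPII genes measured, Sec23b was the single one above all 6 other libraries, although all 10 log2 ratios were above 0, from 0.04 to 0.69. Its paralog Sec23a had a level of 28.1 FPKM in HFD+Pc and a log2 ratio of 0.12.

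Hspa13, an Hsp70-type chaperone of microsomes, had 4.68, 3.69 and 4.72 FPKM in control, 4.17, 5.01 and 5.34 FPKM in HFD and 6.53, 8.67 and 7.79 FPKM in HFD+Pc (ratio 1.55). As for Sec23b, HFD+Pc replicate 1 was the lowest of its group. The list of endoplasmic reticulum chaperones and unfolded protein response genes held no member. Of its 40 genes at the level, 34 had a positive log2 ratio, with a median of 0.22 and 8 above all 6 other libraries. Among all 10523 features at the level, 5406 were positive and 6.05% lay above all 6. The list's summed level was 1334 to 1582 FPKM in control, 1442 to 1693 FPKM in HFD and 1495 to 1815 FPKM in HFD+Pc, so the sums overlapped.

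Cyp2c55, a cytochrome P450 of the xenobiotic-metabolising 2C family, had 1.23, 0.914 and 0.887 FPKM in control, 0.902, 0.847 and 1.64 FPKM in HFD and 2.12, 2.24 and 2.49 FPKM in HFD+Pc. Its ratio was 1.59, the level was low, and HFD replicate 3 was the highest of the other 6. It was the 1 member among 120 xenobiotic enzymes at the level, of which 82 had a positive log2 ratio, against 5406 of all 10523 features. The summed level of that list was 14929 to 17335 FPKM in control, 17943 to 18906 FPKM in HFD and 19758 to 19833 FPKM in HFD+Pc. No groups overlapped, and the HFD sums already lay above the control sums. Fam89a had 3.65 to 6.07 FPKM in the other 6 and 8.63, 9.41 and 6.64 FPKM in HFD+Pc. Hdhd3, named for a haloacid dehalogenase-like hydrolase domain, had 5.24 to 8.01 FPKM in the other 6 and 8.25, 11.9 and 11.8 FPKM in HFD+Pc. Tmco6 had 1.26 to 2.02 FPKM in the other 6 and 2.09, 3.69 and 3.12 FPKM in HFD+Pc. In Hdhd3 and Tmco6, HFD+Pc replicate 1 lay just above the highest of the other libraries.

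Igkj4, a joining segment of the immunoglobulin kappa light chain on chromosome 6, met the rule on 7 reads in all: 1, 1 and 5 in the HFD+Pc libraries and 0 in the other 6. No fold is given, since 0 reads in a library allow up to 3. The segment has 38 bases and no near-identical copy. Igkj3, the neighbour shown with it, had 15 reads over the 9 libraries and a log2 ratio of -0.62. Other segments had positive ratios on few reads: Igkj2 0.62 on 10 reads and Igkj1, under the level, 0.59 on 6 reads.
Igkj4: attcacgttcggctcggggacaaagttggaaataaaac
Igkj3: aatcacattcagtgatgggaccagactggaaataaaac
The kappa constant region Igkc had a log2 ratio of -0.51, and the B and plasma cell marker list summed to 27.0 to 40.8 FPKM in control, 59.9 to 94.2 FPKM in HFD and 31.5 to 43.7 FPKM in HFD+Pc, none of its 8 genes being at 0 in all libraries.

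**Figure D2:**
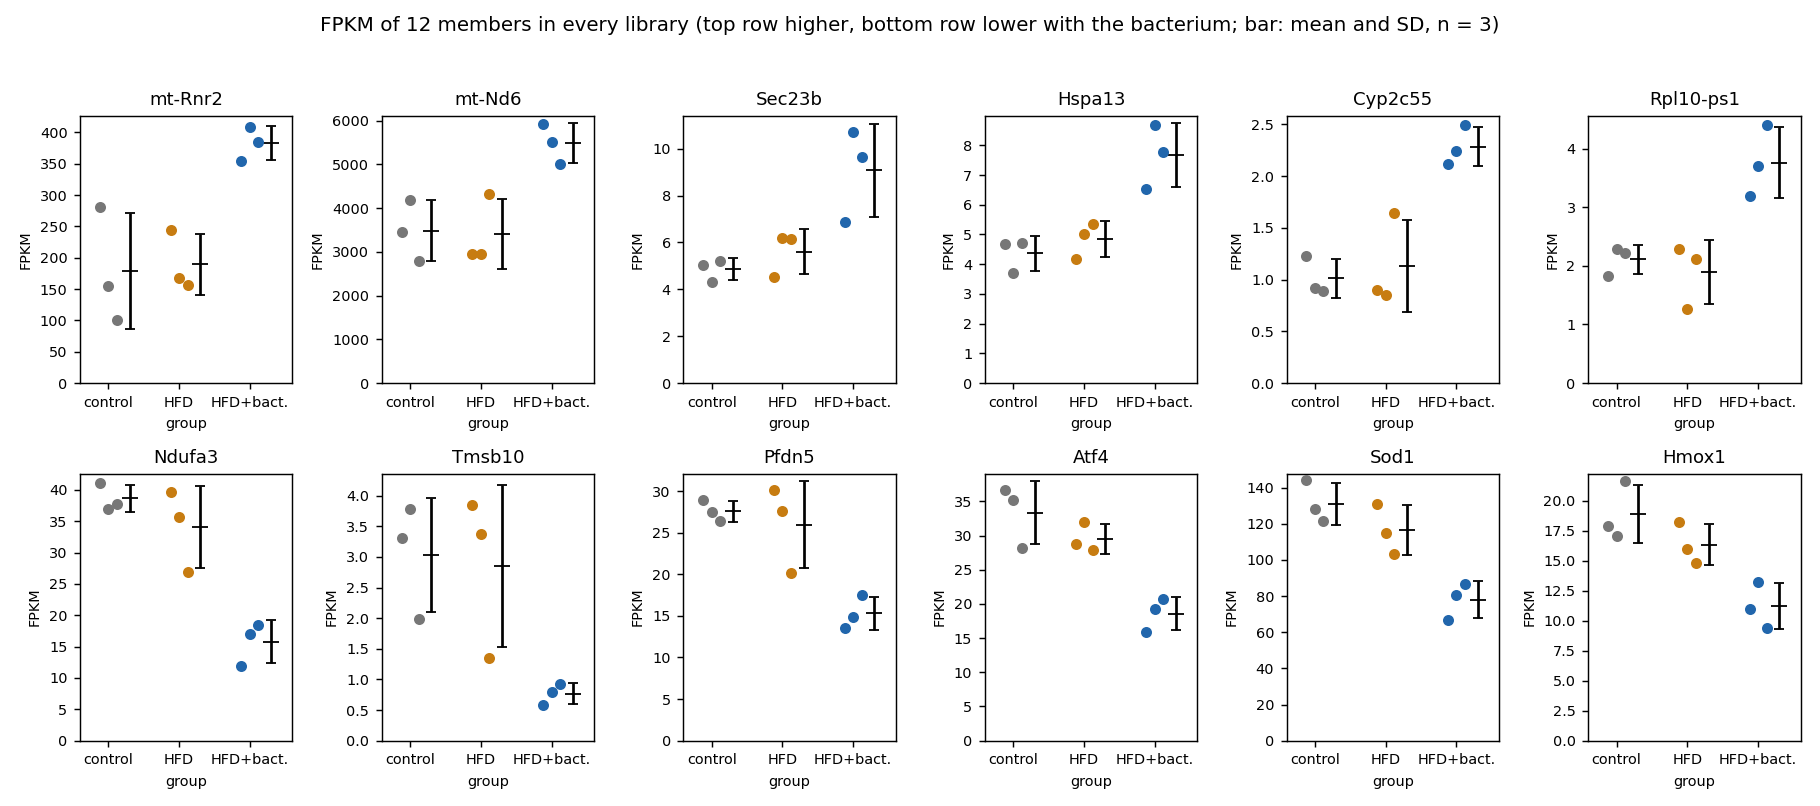
FPKM of 12 members in each library, with points for libraries and a bar for the group mean and SD (n = 3, linear axes from 0). In the top row all HFD+Pc points lie above the other 6, as for mt-Rnr2 (355 to 409 against 101 to 281 FPKM), and in the bottom row below them, as for Ndufa3 (11.97 to 18.4 against 26.9 to 41.2 FPKM).

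The other 13 higher features were processed pseudogenes, intronless copies of messenger RNAs. Ndufab1-ps, a copy of the mitochondrial acyl carrier protein gene Ndufab1, had 10.5, 11.2 and 9.81 FPKM in control, 7.57, 9.83 and 13.7 FPKM in HFD and 21.9, 24.9 and 29.9 FPKM in HFD+Pc (ratio 2.32). The HFD+Pc values were all well clear of HFD replicate 3, the highest of the rest. Ndufab1 had a log2 ratio of 0.48 and the reads summed over all copies 0.54, and those sums also lay above the other 6. Ldha-ps2, a copy of the lactate dehydrogenase A gene Ldha, had 1.60 to 3.15 FPKM in the other 6 and 4.71, 5.19 and 4.71 FPKM in HFD+Pc (ratio 1.83), while Ldha had a log2 ratio of 0.11.

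Rpl17-ps3 had the highest level of these pseudogenes, with 90.9, 76.8 and 79.2 FPKM in control, 99.8, 78.0 and 77.2 FPKM in HFD and a mean of 154 ± 11.2 FPKM (SD, n = 3) in HFD+Pc. It held 23.5% of the reads of its set, against which another copy, Rpl17-ps10, had a log2 ratio of -0.53, and the sum had 0.15. Rpl10-ps1 had 1.26 to 2.28 FPKM in the other 6 and 3.19, 3.70 and 4.41 FPKM in HFD+Pc. Rpl10-ps3, of the same sequence, had 3.10 to 5.99 FPKM in the other 6 and 2.90, 2.80 and 1.85 FPKM in HFD+Pc, and Rpl10 itself had means of 154 FPKM in the other 6 and 227 FPKM in HFD+Pc. Ywhaq-ps3, a copy of the 14-3-3 theta gene Ywhaq, had 0.806 to 1.74 FPKM in the other 6 and 2.09, 2.51 and 2.17 FPKM in HFD+Pc. The remaining 8, with model names and listed here to account for every member, were Gm4950 (parent Psmb3, ratio 2.46), Gm11847 (Hnrnpa3, 1.90), Gm8991 (Hnrnpa3, 1.86), Gm10074 (Lsm5, 1.80), Gm16437 (Iscu, 1.70), Gm10136 (Rpl26, 1.68), Gm15459 (Hspa8, 1.62) and Gm13509 (Ap2m1, 1.51).

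Among the lower features, 36 were protein-coding by annotation. The largest differences among these include genes of mitochondrial proteins. Ndufa3, an accessory subunit of complex I, had 41.2, 37.0 and 37.8 FPKM in control, 39.7, 35.6 and 26.9 FPKM in HFD and 11.97, 17.0 and 18.4 FPKM in HFD+Pc, 2.23-fold lower. Mrps21, a protein of the small mitochondrial ribosomal subunit, had 30.2, 31.5 and 25.7 FPKM in control, 27.2, 27.6 and 22.9 FPKM in HFD and 9.52, 12.6 and 14.02 FPKM in HFD+Pc, 2.19-fold lower. In both genes HFD+Pc replicate 1 was the lowest of all 9 libraries and HFD replicate 3 the lowest of the other 6.

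Ndufv3, another accessory subunit of complex I, had 11.3 to 15.9 FPKM in the other 6 and 7.44, 8.91 and 9.73 FPKM in HFD+Pc. Nfu1, which carries iron-sulfur clusters to target proteins, had 4.43 to 5.29 FPKM in the other 6 and 2.78, 3.22 and 2.58 FPKM in HFD+Pc, with its HFD mean of 5.08 FPKM above its control mean of 4.60 FPKM. Pet100, an assembly factor of cytochrome c oxidase, had 1.497 to 2.57 FPKM in the other 6 and 0.896, 1.23 and 0.993 FPKM in HFD+Pc. The small membrane protein gene Smim4 had 3.88 to 5.83 FPKM in the other 6 and 2.72, 2.65 and 3.82 FPKM in HFD+Pc, where HFD replicate 3 and HFD+Pc replicate 4 nearly met. Of the 44 complex I genes on the list, 10 lay below all 6 other libraries and 3 above, with a median log2 ratio of -0.06. The 76 mitochondrial ribosomal protein genes had 6 below and 3 above and a median of 0.02, and the 11 iron-sulfur assembly genes had Nfu1 below and Isca1 above. Of all features at the level, 6.21% lay below all 6 and 6.05% above. The medians of these lists thus stayed near 0. The counts below all 6 include the members Ndufa3, Ndufv3, Mrps21 and Nfu1, which the rule placed there. Complex I sums were 1642 to 1709 FPKM in control, 1412 to 1588 in HFD and 1271 to 1516 in HFD+Pc. The HFD sums already lay below the control sums, and HFD and HFD+Pc overlapped.

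Prefoldin, the chaperone that hands unfolded actin and tubulin to the cytosolic chaperonin, gave the members Pfdn1 and Pfdn5. Pfdn5 had 28.9, 27.4 and 26.4 FPKM in control, 30.2, 27.6 and 20.1 FPKM in HFD and 13.5, 14.9 and 17.5 FPKM in HFD+Pc, 1.70-fold lower. Pfdn1 had 12.1, 13.3 and 13.5 FPKM in control, 15.3, 13.6 and 11.2 FPKM in HFD and 7.84, 8.02 and 8.49 FPKM in HFD+Pc, 1.55-fold lower. Of the 6 subunits, Pfdn2 and Pfdn6 also lay below all 6 other libraries, with log2 ratios of -0.56 and -0.84, while Pfdn4 (-0.13) and Vbp1 (0.26) did not. Pfdn6 is not a member, because its mean was 7.62 FPKM in control and 4.39 FPKM in HFD, and Pfdn2 did not reach the fold.

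Nop10, a core protein of the H/ACA ribonucleoproteins that guide pseudouridine formation, had 25.6, 27.0 and 27.8 FPKM in control, 27.7, 22.2 and 26.3 FPKM in HFD and 13.5, 14.1 and 18.4 FPKM in HFD+Pc, 1.66-fold lower. Its partners Nhp2 (log2 ratio -0.49) and Gar1 (-0.51) lay below all 6 as well, and the catalytic subunit Dkc1 (0.10) did not. Gar1 was already lower in HFD than in control, with means of 1.12 and 2.11 FPKM. Polr2i, a small subunit of RNA polymerase II, had 9.62, 8.55 and 10.1 FPKM in control, 9.67, 11.3 and 8.54 FPKM in HFD and 3.87, 5.32 and 6.79 FPKM in HFD+Pc, 1.68-fold lower. Polr2j (-0.96) and Polr2l (-1.10) also lay below all 6, and the other 10 of 13 polymerase genes did not, among them the largest subunits Polr2a (-0.02) and Polr2b (-0.14). In prefoldin, the H/ACA complex and the polymerase alike, HFD+Pc replicate 1 had the lowest value of the named member.

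**Figure D3:**
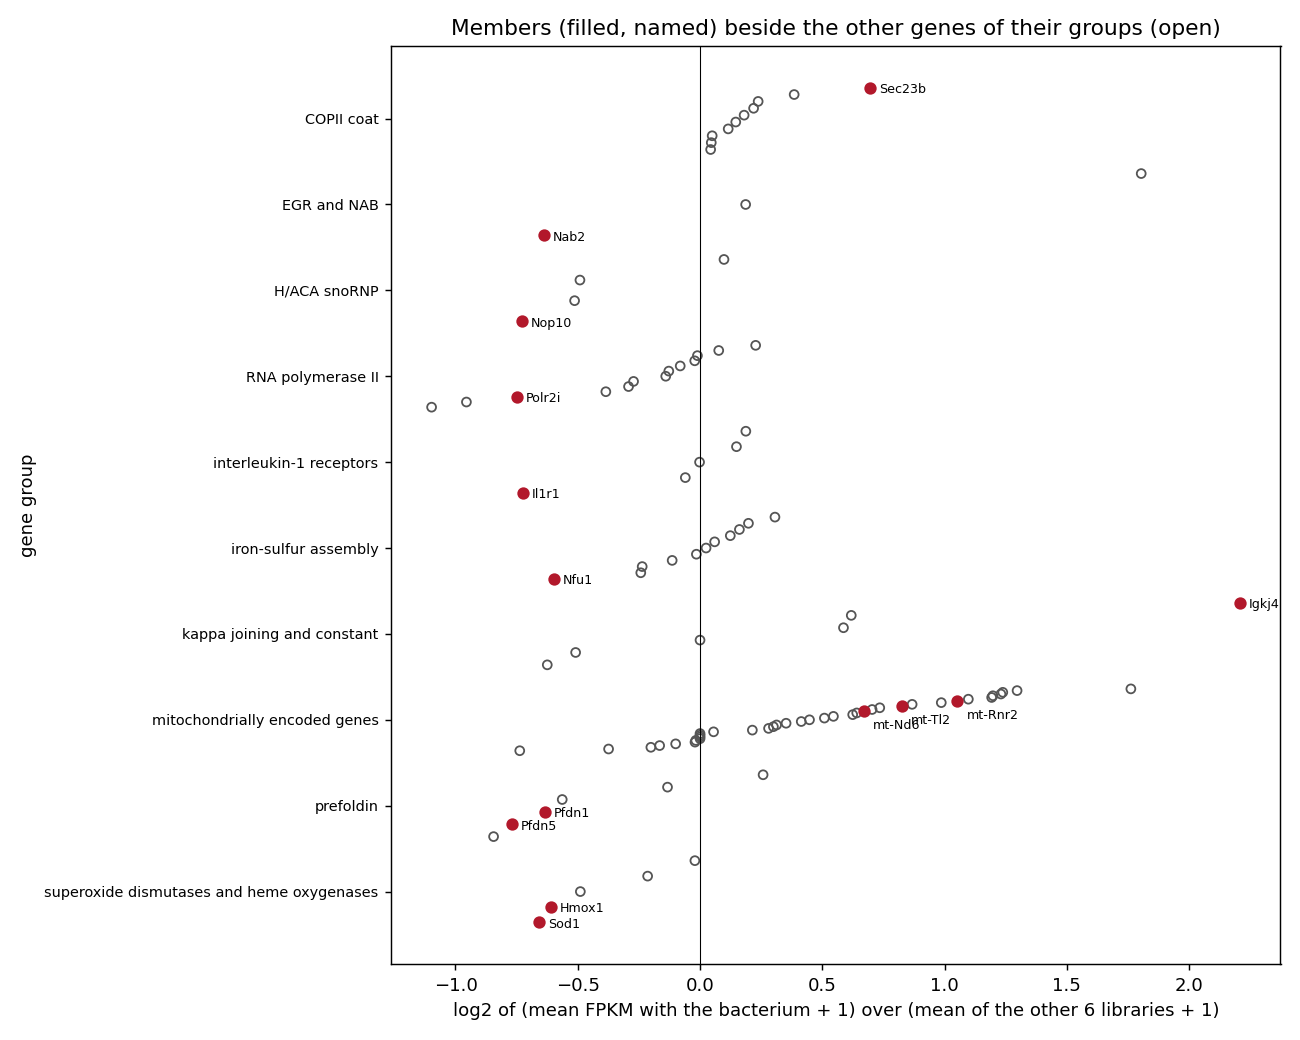
Log2 ratio of HFD+Pc over the other 6 libraries (1 added to each mean FPKM, horizontal axis) for the genes of 10 groups, with members filled and named. Prefoldin has 4 of 6 genes below all other libraries, against 6.21% of all features at the level. Of these 4, the members Pfdn1 and Pfdn5 lie there by the rule, and the groups were chosen for holding members. Nfu1 and Sec23b stand at the end of groups that lie near 0.

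Ubb, which encodes ubiquitin as head-to-tail repeats, had the highest level of the lower features, with 168, 180 and 159 FPKM in control, 188, 185 and 116 FPKM in HFD and 89.6, 79.1 and 83.6 FPKM in HFD+Pc. It was 1.96-fold lower, and its HFD+Pc libraries differed little among themselves. The ubiquitin fusion gene Rps27a had a log2 ratio of 0.07.

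Genes of stress responses followed. Atf4, the transcription factor of the integrated stress response, had 36.7, 35.2 and 28.1 FPKM in control, 28.8, 32.0 and 27.8 FPKM in HFD and 15.9, 19.2 and 20.7 FPKM in HFD+Pc, 1.66-fold lower. It was the 1 member among 12 genes at the level of its amino acid stress list. Of these 12, 8 had a negative log2 ratio, against 5117 of all 10523 features at the level. The median was -0.04, and 2, Atf4 among them by the rule, lay below all 6, as did 6.21% of all features. Sod1, the cytosolic copper-zinc superoxide dismutase, had 144, 128 and 122 FPKM in control, 131, 115 and 103 FPKM in HFD and 66.8, 80.6 and 86.8 FPKM in HFD+Pc, 1.58-fold lower. Hmox1, the inducible heme oxygenase, had 17.9, 17.1 and 21.7 FPKM in control, 18.2, 16.0 and 14.8 FPKM in HFD and 10.97, 13.2 and 9.43 FPKM in HFD+Pc, 1.52-fold lower. The means of Sod1 and Hmox1 in HFD, 116 and 16.4 FPKM, already stood below those in control, 131 and 18.9 FPKM, within the window of the rule.

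The mitochondrial dismutase Sod2 had a log2 ratio of -0.02, whereas Sod3 (-0.21) and the constitutive heme oxygenase Hmox2 (-0.49) lay below all 6. Hmox2 was already lower in HFD than in control, with means of 13.6 and 16.9 FPKM, outside the window. Sod1 and Hmox1 were the members among 20 measured genes of glutathione and the NRF2 response. Of these 20, 12 had a positive log2 ratio, while 4, the members among them by the rule, lay below all 6 other libraries and 1 above. The shares of all features at the level were 6.21% below and 6.05% above. The lumenal endoplasmic reticulum protein gene Jmjd8, at the edge of the rule, had 4.13 to 5.36 FPKM in the other 6 and 2.80, 2.79 and 2.85 FPKM in HFD+Pc. It overlaps Stub1 on the opposite strand over 39.3% of its length, and it is not given in the sources used here whether reads were counted by strand. The other lower members with such an overlap of at least 20% and reads on the partner were Polr2i (Tbcb), Pet100 (Pcp2) and Sh3bgrl3 (Ubxn11).

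A further group of lower features is known from leukocytes or from the actin cytoskeleton. Tmsb10, a thymosin that binds actin monomers, had 3.31, 3.78 and 1.99 FPKM in control, 3.84, 3.38 and 1.35 FPKM in HFD and 0.583, 0.795 and 0.928 FPKM in HFD+Pc, 2.23-fold lower. HFD replicate 3 was again the lowest of the other 6, and 54.1% of the reads of Tmsb10 and its copies fell on Tmsb10. Cd52, a surface glycopeptide of lymphocytes and macrophages, had 6.31, 4.86 and 6.47 FPKM in control, 7.81, 5.89 and 3.51 FPKM in HFD and 3.47, 2.01 and 2.49 FPKM in HFD+Pc, 1.86-fold lower. HFD replicate 3 and HFD+Pc replicate 1 were nearly equal. Cd300c2, a receptor of myeloid cells, had 4.57 to 6.50 FPKM in the other 6 and 3.90, 2.06 and 2.23 FPKM in HFD+Pc, 1.76-fold lower. It held 41.7% of the reads of its set with Cd300a, and the sum had a log2 ratio of -0.63 and overlapped between the groups.

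Vasp, which promotes actin filament growth, had 4.30 to 6.70 FPKM in the other 6 and 3.19, 3.33 and 3.44 FPKM in HFD+Pc, 1.62-fold lower. Gmfg and Hcls1, which act on actin branching in blood cells, were 1.54-fold and 1.51-fold lower, with HFD+Pc means of 0.751 ± 0.102 and 2.11 ± 0.181 FPKM (SD, n = 3). Sh3bgrl3 had 4.78 to 8.66 FPKM in the other 6 and 3.97, 3.49 and 4.69 FPKM in HFD+Pc, 1.58-fold lower. Il1r1, the signalling receptor of interleukin-1, had 6.65, 4.65 and 11.9995 FPKM in control, 5.14, 7.88 and 9.26 FPKM in HFD and 4.62, 3.92 and 4.06 FPKM in HFD+Pc, 1.65-fold lower. Control replicate 2 was nearly equal to HFD+Pc replicate 1, and the accessory chain Il1rap had a log2 ratio of 0.15.

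From the interferon response, Oasl1, a protein related to oligoadenylate synthetases, had 5.496 to 9.26 FPKM in the other 6 and 4.19, 4.12 and 4.54 FPKM in HFD+Pc, and Ifi211, a PYHIN family protein, had 1.13 to 2.68 FPKM in the other 6 and 0.801, 0.936 and 0.962 FPKM in HFD+Pc. They were the members among 55 genes of the interferon list at the level, of which 36 had a negative log2 ratio. The list's median was -0.14, and 4 of its genes, the members among them by the rule, lay below all 6. Among all 10523 features at the level, 5117 were negative and 6.21% lay below all 6. Ifi211 is 96.9% identical to Ifi204 over 1363 bases and held 14.5% of the reads of its set, whose sum had a log2 ratio of -0.67 and overlapped between the groups.

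Markers of other cells were measured beside these features. All 12 Kupffer cell and macrophage markers had a negative log2 ratio, with a median of -0.42 and 1 below all 6 other libraries. Among all 10523 features at the level, 5117 were negative and 6.21% lay below all 6. The summed level of these 12 markers was 436 to 604 FPKM in control, 431 to 583 FPKM in HFD and 314 to 490 FPKM in HFD+Pc. The groups thus overlapped, and no marker was at 0. The T and NK cell list (4 of 4 measured genes negative) summed to 7.36 to 10.3, 7.30 to 13.6 and 5.96 to 8.48 FPKM in the same order. For neutrophils (3 of 3 negative) the sums were 3.42 to 9.28, 5.78 to 15.8 and 7.05 to 7.25 FPKM. The 8 endothelial markers, all negative with a median of -0.10, summed to 75.6 to 86.3, 52.5 to 64.8 and 61.3 to 63.2 FPKM. The erythroid list did separate: its 5 genes, 4 of them hemoglobin genes, summed to 254 to 397 FPKM in control, 233.3 to 359 FPKM in HFD and 168.6, 224.8 and 232.7 FPKM in HFD+Pc. Its median log2 ratio was -0.60, with 4 of 5 genes negative and 2 below all 6 other libraries, and HFD replicate 3 nearly met HFD+Pc replicate 4. None of its genes was at 0. The part of these cell types in the lower features was not tested. All 8 hepatocyte markers were present, with a median log2 ratio of -0.28 and 5 of the 8 negative. They summed to 49655 to 51058 FPKM in control, 33665 to 36355 FPKM in HFD and 37862 to 52102 FPKM in HFD+Pc.

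Regulators and other proteins completed the coding genes. Zbtb7b, a zinc finger repressor best known for helper T cell fate, had 11.9 to 15.5 FPKM in the other 6 and 8.26, 8.47 and 8.73 FPKM in HFD+Pc. Nab2, a corepressor that binds EGR proteins, had 2.61 to 4.001 FPKM in the other 6 and 1.83, 1.32 and 1.93 FPKM in HFD+Pc. Egr1 went the other way, with 0.407 to 2.96 FPKM in the other 6 and 8.35, 9.35 and 7.04 FPKM in HFD+Pc, and is no member because its mean also differed between control (0.973 FPKM) and HFD (2.32 FPKM). Zfp524, a zinc finger protein, was 1.81-fold lower at 0.717, 0.374 and 0.990 FPKM in HFD+Pc.

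Tedc2, a protein of the tubulin delta and epsilon complex, had 27.9, 21.3 and 43.5 FPKM in control, 18.5, 31.7 and 33.5 FPKM in HFD and 13.1, 16.3 and 15.9 FPKM in HFD+Pc, 1.89-fold lower, and the control and HFD libraries spread more than the HFD+Pc libraries did. Dynlt1b, a light chain of the dynein motor, was 1.85-fold lower, but with its paralogs and pseudogene, which held most of the reads, the log2 ratio was -0.28 and the groups overlapped. Pdcd5, a protein linked to programmed cell death, had 2.75 to 4.06 FPKM in the other 6 and 0.851, 1.51 and 2.19 FPKM in HFD+Pc. Its pseudogene Pdcd5-ps, identical over 381 bases, had a log2 ratio of 0.54, and the sum had -0.24. Smim22 and Mustn1 had HFD+Pc means of 0.593 ± 0.268 and 1.60 ± 0.109 FPKM (SD, n = 3) and were 1.69-fold and 1.54-fold lower. BC005624 (1.57-fold lower), Rpl10-ps3 and Gm10282, annotated as coding, complete the 36.

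Pseudogenes and unnamed models made up the other 18 lower features. Gm10443 had 77.7, 77.9 and 71.6 FPKM in control, 79.9, 62.1 and 70.2 FPKM in HFD and 33.8, 17.6 and 24.5 FPKM in HFD+Pc, 2.82-fold lower. Its parent Rps28 had means of 14.3 FPKM in the other 6 and 4.28 FPKM in HFD+Pc, and the reads summed over all copies had a log2 ratio of -1.69, so gene and copy had the same direction. Rpl7a-ps11 did likewise, at -1.18 summed, with Rpl7a at -1.96. Gm11964 (parent Edf1, 25.2 against 50.8 FPKM), BC002163 (Ndufs5, 36.1 against 51.0 FPKM) and Gm12231 (Atp5f1, 57.9 against 71.7 FPKM) also had summed values below all 6 other libraries.

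The copies of Naca (Gm6863, summed log2 ratio -0.07), Sec61g (Gm10177, -0.09), Rpl21 (Gm11703, -0.10), Rps13 (Rps13-ps2, -0.26), Ptma (Gm9800, -0.27) and Ubald2 (Gm7367, -0.31) had sums nearer to 0 that overlapped between the groups. In the Gm11703 sum, 12057 of 18671 reads were from BC004004 (log2 ratio 0.21), while Rpl21 had -0.48 and Rpl21-ps15 -0.80. In the Gm10177 sum, 8415 of 13079 reads were from Zkscan1 (0.04), which matches over 207 bases, while Sec61g had -0.14. For Gm4045 (Atp5l, 0.05), Gm10282 (Hmgn2, 0.13), Gm13341 (0.52) and Rpl10-ps3 (0.55) the sum had the opposite sign to the member. Gm10297 shares 633 bases with Gkap1 without a mismatch and summed to -0.45. The remaining models were Gm49172, 8430422M14Rik and a row without an Ensembl identifier, for which there is no annotation here and which was 2.75-fold lower.

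Over all members whose reads were recovered, 17 of 26 higher and 32 of 53 lower features had a copy with reads, taken as at least 90% identity over at least 100 bases and 50% of the shorter transcript. Other copies held more reads than the member in 15 and 20 of these. On the summed reads, with nothing added, the median log2 ratio of the higher features with a copy changed from 0.97 to 0.16 and that of the lower ones from -1.08 to -0.53. The sums of 6 higher features still lay above all 6 other libraries and those of 17 lower features below them. The sign turned in 2 higher features (Gm13340 and Gm10074) and 4 lower ones. A match can be a shared stretch rather than a copy of the gene, and how the authors' counting placed reads that fit several genes is not given in the sources used here.

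**Figure D4:**
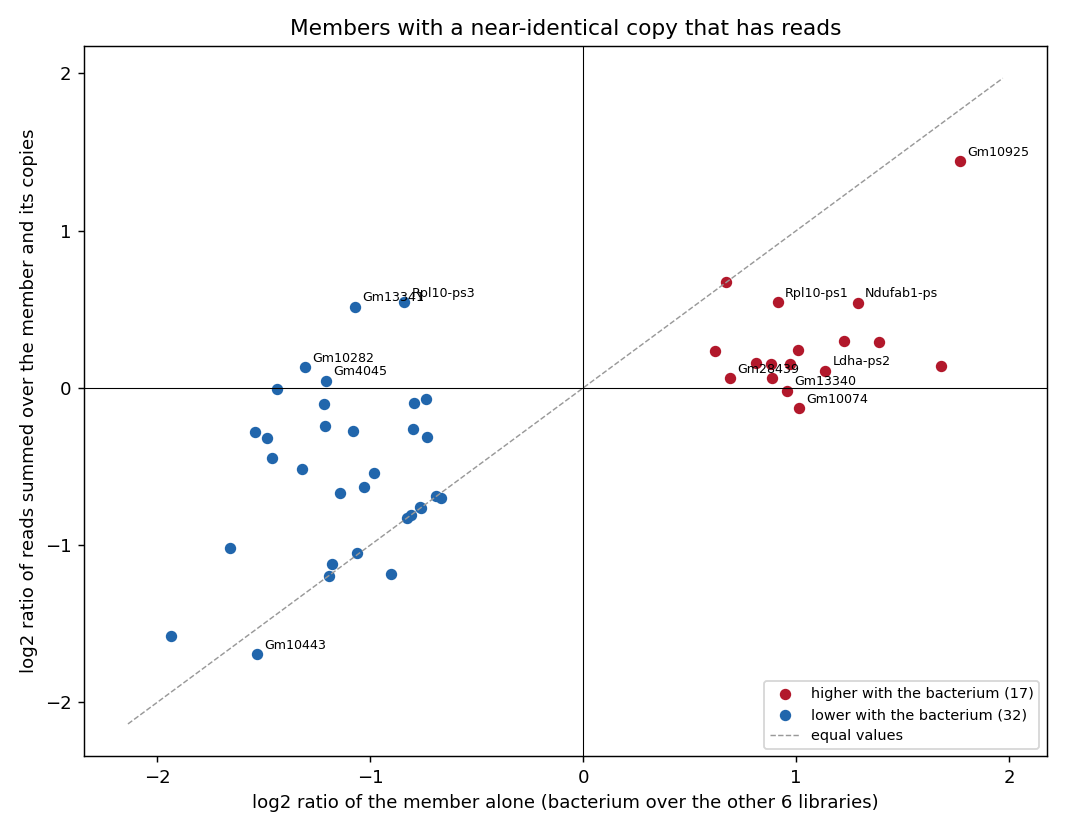
Log2 ratio of each member with a copy (horizontal axis) against that of its reads summed with all near-identical copies (vertical axis), for 17 higher and 32 lower features. Points on the dashed line keep their value, as mt-Nd6 does (0.67), and most higher features lie nearer to 0 once summed, Gm10925 (1.77 alone, 1.44 summed) standing highest.

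Members were short. The median exon length was 966.5 bases in the higher and 1187 bases in the lower features against 3950 bases over all features at the level, and 13 of 26 and 22 of 53 were under 1000 bases against 8.19% of all features at the level. Among protein-coding genes alone the medians were 1995, 1713 and 4275 bases. Length also moved with library over all features: in genes under 500 bases the median log2 ratio was -0.10. There, relative to the mean of the control and HFD libraries, HFD replicates 2 and 3 stood at -0.10 and -0.15. HFD+Pc replicates 1, 3 and 4 stood at -0.17, -0.19 and -0.10. The control libraries lay from -0.04 to 0.03 and HFD replicate 1 at 0.01. HFD libraries are part of that mean, and HFD+Pc libraries are not. With each library's trend on length removed, 45 of the 54 lower and 24 of the 26 higher features still met the rule. Chromosome 7 held 9 of the 54 lower features (16.7%) and 1 of the 26 higher ones, against 6.93% of all features at the level. Shares of the other nuclear chromosomes were not counted, and a pattern by position was not tested.

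**Figure D5:**
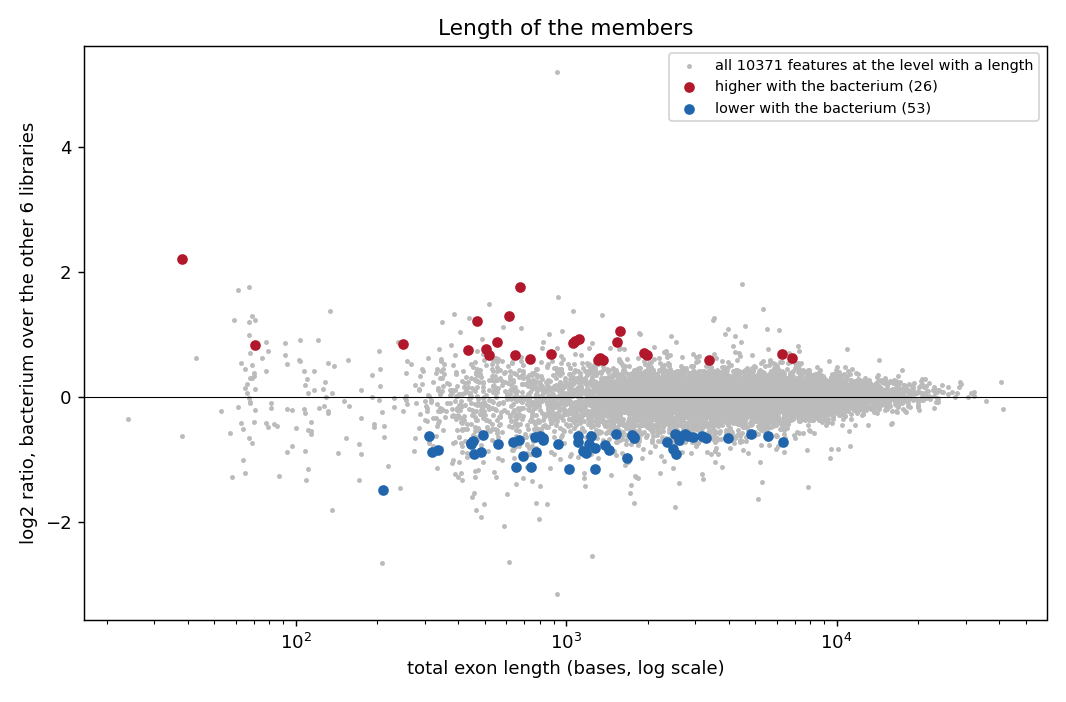
Log2 ratio of HFD+Pc over the other 6 libraries against total exon length (log scale) for all features at the level (grey) and the members (coloured). The members crowd at the short end, with median lengths of 966.5 and 1187 bases against 3950 bases overall.

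Promoters from RefSeq (GRCm38.p6, 250 bases before to 50 bases after the start) were matched to 4 higher and 29 lower features. The letters CCAAT, on either strand, were in 15 of the 29 lower promoters (51.7%) and 2 of the 4 higher ones, against 39.1% of promoters of features at the level and 37.9% of all promoters. None of these promoters held the ER stress element, the unfolded protein response element TGACGTGG, the E-box CACGTG or the NRF1 site, which were in 0.181%, 0.828%, 10.6% and 2.15% of promoters at the level. The cAMP element TGACGTCA was in 1 of the 29 lower promoters (3.45%), that of Pet100, against 3.29% of promoters at the level. The sterol element TCACNCCAC was also in 1 of the 29, that of Gmfg (1.14% at the level). The CArG box was in none (1.23% at the level). Stretches of the promoters of Atf4 (chr15:80255064-80255183, plus strand) and Sec23b (chr2:144556109-144556228, plus strand) are shown with CCAAT or its complement in capitals.
Atf4: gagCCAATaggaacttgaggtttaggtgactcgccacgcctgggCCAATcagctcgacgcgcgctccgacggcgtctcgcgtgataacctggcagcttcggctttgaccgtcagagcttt
Sec23b: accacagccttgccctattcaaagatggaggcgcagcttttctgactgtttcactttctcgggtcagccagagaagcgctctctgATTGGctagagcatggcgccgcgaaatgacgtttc

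Few members depended on no single library. When each library was left out in turn, 4 of the 26 higher features met the rule all 9 times: Gm11847, Rpl17-ps3, Gm15459 and Cyp2c55. The same was true of 13 of the 54 lower features, among them Gm10443, Ubb, Pfdn5, Pfdn1, Nop10, Polr2i, Cd300c2, Zbtb7b and Zfp524. Tmco6 and Gm13509 met it 3 of 9 times and Hmox1, Hdhd3, Ywhaq-ps3 and Rpl10-ps3 4 times. Without HFD replicate 3, 99 features were lower and met the rule in place of 54, and without HFD+Pc replicate 1 there were 54 higher and 88 lower.

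Fitted over the 10988 features that reached 1 FPKM in 3 or more libraries, limma with Benjamini-Hochberg adjustment at 0.05 called 4 of the 26 higher members in HFD+Pc against HFD, where it called 0.182% of all features higher. It called 12 of the 54 lower members in that comparison, against 0.446% of all features lower. Against control it called 24 and 51 of them, with 11.1% and 11.9% of all features. The members were chosen on these same values, so nothing is read from these counts. In HFD against control, where the rule's window holds the members near level, it called 4.61% of all features higher and 5.35% lower. Both HFD+Pc comparisons use the same HFD+Pc libraries.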

How the data were processed

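Values in the deposited table are FPKM, as its headers say, computed by the authors after alignment to GRCm39 by HISAT2 2.0.5 (from the submitters' processing notes). The counter, its handling of reads that fit several genes, the annotation and strand use are not given in the sources used here. Of 53700 Ensembl rows, a name table gave symbols to 52093, and 307 rows are models without such an identifier. Whole reads could be recovered from the FPKM and annotated lengths (GENCODE M21, GRCm38) for 25362 of 26278 rows above 0 (96.5%), within 0.02 of a whole number, and served for copies and floors. No coordinates of that annotation are printed, and those of 2 RefSeq promoters are in GRCm38.p6.

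The members were taken by the rule, in Python 3.11.15 with numpy 2.4.6 and pandas 2.3.3. The members and gene lists were chosen with earlier results of these data known, so values chosen by the rule carry no test. Copies were found with BLAST 2.17.0+. The 3 comparisons over all features used limma 3.58.1 in R 4.3.3 on log2(FPKM + 1), with trend and robust estimation and all 9 libraries in 1 model, and the script was tested on simulated data. Genes were named by this rule: the 15 members of each direction with the largest ratio and a symbol other than a model name, members on a gene list (up to 4 per list and direction), those nearest the fold limit on either side, and partner genes. All other members were named after their values were seen, to account for each; 1 lower member and some partner genes are not reported here. Alternatives changed the level, fold, added value, window, scaling, filter, groups in the fit and libraries.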

Additional observations from a re-analysis of the deposited data

How the results depend on the processing

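The member counts of 26 higher and 54 lower followed the limits of the rule. The looser of the fold limits tried gave 140 and 198, a 2-fold limit 5 and 6, and a narrower HFD over control window, from 0.95, gave 10 and 21. A wider window, from 0.8, gave 90 lower features, and rescaling to TPM 103. Leaving out each library gave 24 to 54 higher and 43 to 99 lower features, the highest without HFD+Pc replicate 1 and without HFD replicate 3. The other settings, among them the removal of a length trend, which was chosen after seeing the data, gave counts within 1.5 times of these.

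Limma called 69, 2538 and 1095 features in HFD+Pc against HFD, HFD+Pc against control and HFD against control. Without a filter it called 3, 1383 and 209. With at least 0.1 FPKM in 3 libraries, HFD+Pc against HFD had 27 and HFD against control 725, and with only the 2 groups compared these had 22 and 680. Removal of the length trend gave 141 in HFD+Pc against HFD. Without each library in turn the 3 comparisons had 5 to 123, 1396 to 2644 and 332 to 1126, the extremes of the first being without HFD replicate 2 and without HFD replicate 3. With the replicate number as a block (replicate block) they had 3, 1058 and 232. The deviations of same-numbered libraries correlated at -0.119 to 0.0533. No pairs with different numbers were set beside them, so whether same-numbered libraries share more than a number was not tested.

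Reads summed with near-identical copies turned the sign of the log2 ratio for Gm13340 (-0.018), Gm10074 (-0.13), Gm4045 (0.047), Rpl10-ps3 (0.55), Gm13341 (0.52) and Gm10282 (0.13). Sums share reads among genes, so they limit which locus a value belongs to. The cause of the other changes was not tested. Groups of 3 libraries and levels of a few reads limit the precision of low members.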
